A study of Mus musculus with 12 samples.

Results

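Ddit4l, Kcnip1, Pard6g, Usp2, Cabp1, Myo7a and Rpl27a are 7 mouse genes whose signal stood lower in the striatum 1 hour after cocaine. Cabp1, Myo7a and Rpl27a were chosen on their change in mutants of the gene Srf, and in controls Cabp1 and Myo7a were not lower. All 7 genes were followed through every probe set (a group of short array probes designed for 1 transcript) annotated to exactly 1 of them. This gave 14 of the 22690 probe sets on the array and 7 of the 12394 genes that have such a probe set. Of the 14, 10 were bright enough to be tested and are described below. The 4 dim ones, a pair for Kcnip1 and 1 each for Pard6g and Rpl27a, lay between 2.19 and 2.72 on the log2 scale in all 12 arrays and gave no comparison.

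Each array carried RNA from the striatum, including the nucleus accumbens, of female littermates aged 10 to 15 weeks. The study has 4 groups of 3 arrays that the titles call biological replicates: mutants given cocaine, mutants given saline, controls given cocaine and controls given saline. Cocaine was injected into the abdomen at 25 mg/kg and the brain was taken 1 hour later. The mutants concern Srf (serum response factor), a transcription factor that binds CArG boxes and drives activity-dependent and cytoskeletal genes. The mutant Srf allele, the Cre line or promoter behind it if there was one, the genotype and strain of the controls, and whether tissue was pooled are not known from the labels. A free-text description of some samples contradicted their titles, and the treatment text of the saline samples also named cocaine, so the groups follow the titles.

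The genes were chosen by the same signals that are reported here. Ddit4l, Kcnip1, Pard6g and Usp2 were selected on their cocaine change averaged over both genotypes, which passed an adjusted p of 0.05 (called, below), and Cabp1, Myo7a and Rpl27a on their cocaine change in mutants. For an averaged change the choice also asked for the same sign in both genotypes, which makes a difference in response between genotypes less likely, so that difference is described with its interval and not tested. The cocaine changes that chose the genes are likewise given as descriptions, and a choice on small p also favours genes whose replicates happened to lie close together. Over the 11102 tested probe sets, 0.207% were called lower with cocaine over both genotypes (23 probe sets, 6 of them of these genes), 0.162% were called lower in mutants, and 0% in controls, where 243 were lower at an unadjusted p under 0.05 in limma. Just inside the threshold over both genotypes stood Smn1 at -0.32 and Ddit4l at -0.52, and just outside it Mta1 at -0.29 and Anxa6 at -0.28 (log2 changes). In mutants, Rpl27a at -0.66 was just inside, and Stam at -0.31 and Sema5b at -0.45 were just outside.

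The 7 proteins work in unrelated places. DDIT4L (REDD2) restrains the growth kinase complex mTORC1, which stands between synaptic signals and protein synthesis. KChIP1, the product of Kcnip1, is a calcium sensor bound to Kv4 potassium channels, which shape dendritic excitability. PAR6 gamma, from Pard6g, is a scaffold of the polarity complex with atypical protein kinase C and Cdc42. USP2 removes ubiquitin from its substrates and is known as an output of the circadian clock. CaBP1, or caldendrin, is a neuronal calmodulin relative that tunes calcium channels and inositol trisphosphate receptors. Myosin VIIa is an actin motor best known from hair cells and retina, and RPL27A is a protein of the large ribosomal subunit. Cocaine raises extracellular dopamine in the striatum by blocking its reuptake, and a single dose starts a wave of transcription in the projection neurons.

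The labels were checked on Srf itself. Its tested probe set (1418255_s_at) lay between 5.01 and 5.49 in the 6 mutant arrays and between 6.97 and 7.21 in the 6 control arrays (log2 signal), a difference of -1.83 (SE 0.0662, adjusted p = 5.70e-09, limma). Where this probe set lies relative to the mutated part of Srf is not known from the labels. Of 12 markers of striatal projection neurons, 8 had a single-gene probe set, and all 8 were tested; Penk averaged 11.82 and 11.91 in the mutants and 11.67 and 11.67 in the controls, given cocaine and saline in each case. Over both treatments Tac1 (0.35, adjusted p = 0.00102) and Penk (0.19, adjusted p = 0.0431) were higher and Rgs9 (-0.33, adjusted p = 0.0342) lower in mutants. Drd1 and Gpr6 had no single-gene probe set. One array stood apart by Ttr, the choroid plexus transport protein, which reached 9.61 in replicate 3 of the controls given cocaine, against 2.83 to 5.90 in the other 11 arrays. The other 4 choroid plexus and ependymal markers with a single-gene probe set were under the filter for testing. Leaving that array out shifted no change of a probe set of these 7 genes by more than 0.10 on the log2 scale, and the changes in controls without it are given with each gene.

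Ddit4l, the mTORC1 inhibitor, was the member with a tested difference between genotypes, and it was lower in the mutants whichever treatment they had received. Probe set 1439332_at read 4.41, 3.98 and 4.09 in mutants given cocaine, 4.48, 5.00 and 4.67 in mutants given saline, 5.68, 5.13 and 5.32 in controls given cocaine, and 6.02, 5.99 and 5.58 in controls given saline. Every mutant array was below every control array, and the groups ran in the order just given, with the cocaine and saline arrays of the controls overlapping. Over both treatments it was 2.27-fold lower in mutants (log2 difference -1.18, SE 0.124, adjusted p = 6.29e-05, limma). After cocaine the difference was -1.22 (adjusted p = 0.00159), and after saline it was -1.15 (adjusted p = 0.00297).

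The second Ddit4l probe set gave the same separation with less spread. Probe set 1451751_at read 4.34, 4.24 and 4.59 in mutants given cocaine, 4.69, 4.76 and 4.62 in mutants given saline, 5.34, 5.19 and 5.01 in controls given cocaine, and 5.56, 5.64 and 5.52 in controls given saline. Here none of the 4 groups overlapped with another. The genotype difference was 1.78-fold (log2 -0.84, SE 0.0743, adjusted p = 1.50e-05), with -0.79 after cocaine (adjusted p = 9.08e-04) and -0.88 after saline (adjusted p = 4.64e-04). Among all tested probe sets, 9.47% were called for genotype over both treatments in either direction and 5.05% as lower in mutants; 1.92% were called lower after cocaine and 1.64% after saline. Complete separation of the genotypes over both treatments, with mutants lower, occurred for both Ddit4l probe sets and for 3.12% of all tested probe sets.

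The cocaine change that chose Ddit4l was -0.52 and -0.35 for its 2 probe sets over both genotypes. In mutants it was -0.55 and -0.30, and in controls -0.48 and -0.40 (-0.46 and -0.31 without the array high in Ttr). The difference in response, the change in mutants minus the change in controls, was -0.07 for the first probe set (95% interval -0.61 to 0.47) and 0.10 for the second (-0.22 to 0.42). Those intervals reach about as far to either side as the cocaine changes themselves, so a moderate difference in response was not detectable with 3 arrays a group. In tissue RNA such as this, fewer cells of a type and less RNA per cell cannot be told apart. Lamp5, the single tested marker of 8 for cortical glutamate neurons, was also lower in mutants, at 7.87 ± 0.0697 after cocaine and 7.96 ± 0.0532 after saline, against 8.53 ± 0.208 and 8.58 ± 0.159 in controls (SD, n = 3 each; difference -0.64, SE 0.0772, adjusted p = 1.81e-04); its summed linear signal was 221 to 258 in mutants and 314 to 433 in controls. Neurod6, Neurod2, Tbr1, Slc17a6 and Rorb, also on that list, were under the filter for testing. The list was therefore read by 1 gene, and whether Lamp5 follows cortical tissue here was not tested. The part of tissue composition in the Ddit4l difference was not tested either.

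**Figure D1:**
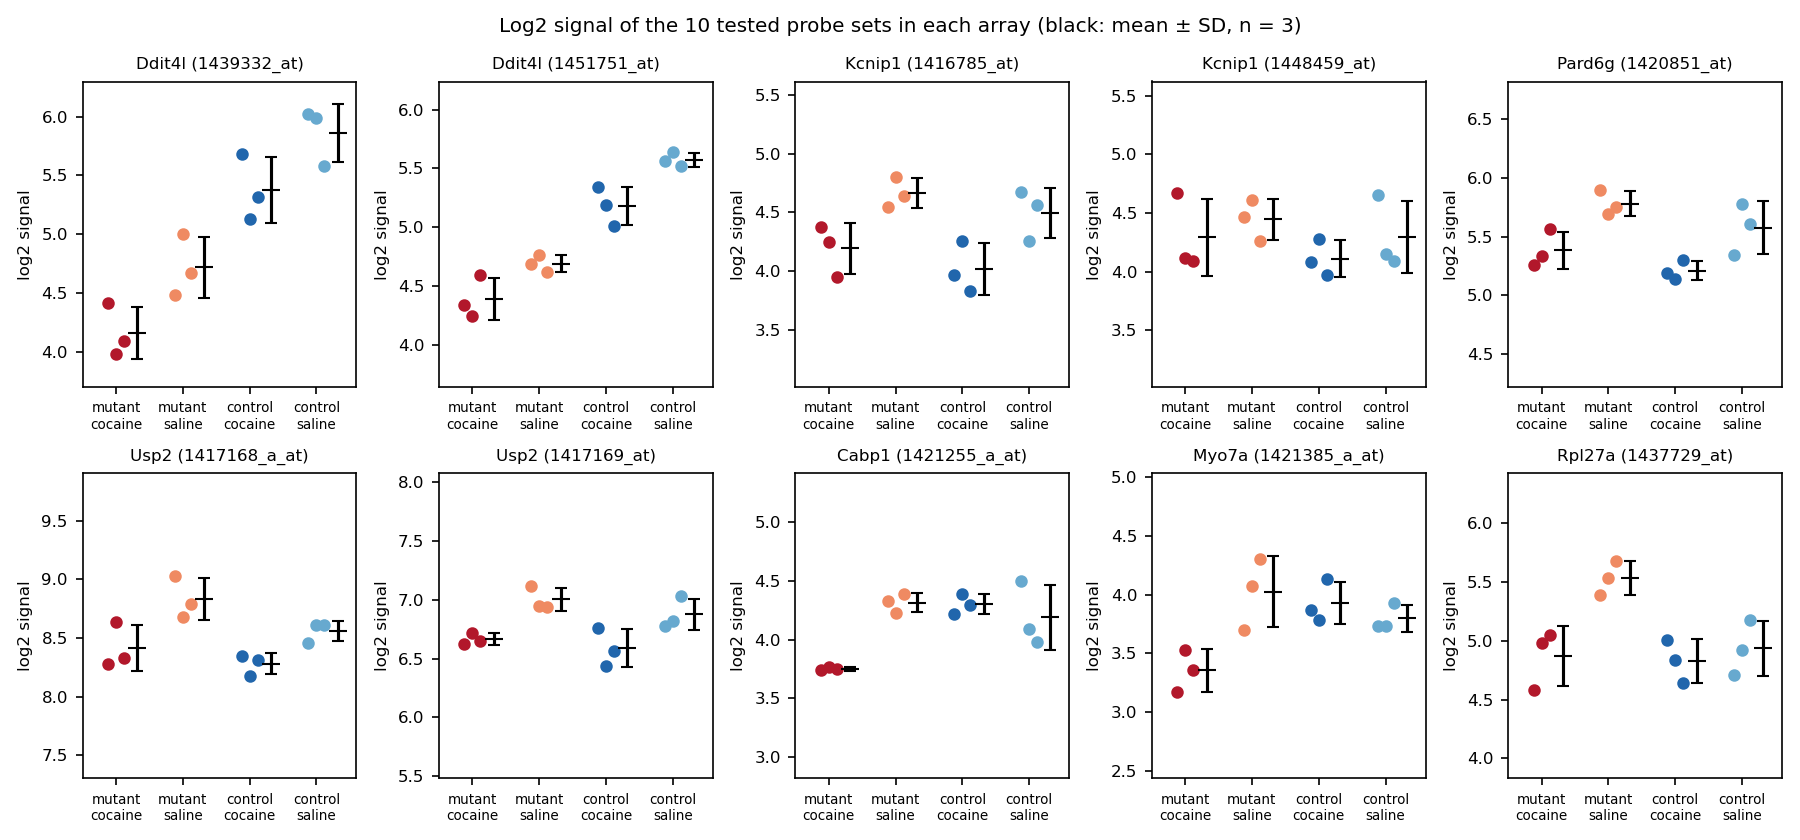
Log2 signal (vertical axis, the same span in every panel) of the 10 tested probe sets in each of the 12 arrays, by group; points are arrays and black marks are the mean ± SD (n = 3). For Ddit4l all mutant arrays lie below all control arrays, while Cabp1 lies at 3.74 to 3.77 in mutants given cocaine and higher in the other 3 groups.

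The Ddit4l gene lies at 137623672 to 137628332 on chromosome 3 (GRCm38.p6, plus strand), and the 250 bases before its start are shown because Srf acts through promoter CArG boxes. The capitals mark a 21-base direct repeat, whose copies begin at positions -181 and -160 from the start and follow each other without a gap (sequence from RefSeq, chr3:137623422-137623671).
Ddit4l promoter: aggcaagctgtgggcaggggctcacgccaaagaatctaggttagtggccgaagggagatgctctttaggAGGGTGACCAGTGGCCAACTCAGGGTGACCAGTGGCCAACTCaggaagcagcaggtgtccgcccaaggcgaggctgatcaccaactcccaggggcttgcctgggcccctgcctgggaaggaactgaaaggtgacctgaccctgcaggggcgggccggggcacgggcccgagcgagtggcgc
For comparison, 60 bases of the promoter of Srf, a gene known to bind its own product, hold 2 CArG boxes in capitals, at positions -82 and -62 (minus strand, chr17:46556203-46556262).
Srf promoter: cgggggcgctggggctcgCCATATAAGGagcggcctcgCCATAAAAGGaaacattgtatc
The Ddit4l window, 250 bases before to 50 after the start, held no CArG box. Of all 32851 windows only 1.63% held one, so a window without one is common. Whether Srf acts on Ddit4l was not tested.

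Kcnip1 showed nearly the same cocaine change in both genotypes. Probe set 1416785_at read 4.38, 4.25 and 3.95 in mutants given cocaine, 4.55, 4.80 and 4.64 in mutants given saline, 3.97, 4.26 and 3.83 in controls given cocaine, and 4.67, 4.26 and 4.56 in controls given saline. The treatment groups were separate in mutants and met at 4.26 in controls. Its chosen change was -0.47 over both genotypes, -0.47 in mutants and -0.48 in controls (-0.38 without the array high in Ttr), which is 1.39-fold lower in each genotype. The difference in response was 0.01 (95% interval -0.43 to 0.44), and the genotype difference of 0.17 did not pass the test (95% interval -0.05 to 0.39, adjusted p = 0.334).

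The second tested Kcnip1 probe set, 1448459_at, did not separate the treatments. It read 4.67, 4.12 and 4.09 in mutants given cocaine, 4.47, 4.61 and 4.26 in mutants given saline, 4.08, 4.28 and 3.97 in controls given cocaine, and 4.65, 4.15 and 4.09 in controls given saline. The cocaine change was -0.16 in mutants and -0.18 in controls, with 95% intervals that reached 0.23 and 0.20, so the Kcnip1 change rests on 1 of its 2 tested probe sets.

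Pard6g, the polarity scaffold, was lower after cocaine in both genotypes without overlap. Its tested probe set, 1420851_at, read 5.26, 5.33 and 5.56 in mutants given cocaine, 5.90, 5.69 and 5.75 in mutants given saline, 5.19, 5.14 and 5.30 in controls given cocaine, and 5.34, 5.78 and 5.61 in controls given saline. The change was -0.39 in mutants and -0.36 in controls (-0.41 without the array high in Ttr), and -0.38 over both. The difference in response was -0.03 (95% interval -0.39 to 0.33). Pard6g was 0.19 higher in mutants over both treatments, which did not pass the test across all probe sets (95% interval 0.01 to 0.37, adjusted p = 0.185).

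Usp2, the deubiquitinase, was measured by 2 probe sets with the same order of groups. Probe set 1417168_a_at read 8.28, 8.64 and 8.33 in mutants given cocaine, 9.03, 8.68 and 8.79 in mutants given saline, 8.35, 8.18 and 8.31 in controls given cocaine, and 8.46, 8.61 and 8.61 in controls given saline. Probe set 1417169_at read 6.62, 6.72 and 6.65 in mutants given cocaine, 7.12, 6.95 and 6.94 in mutants given saline, 6.76, 6.44 and 6.56 in controls given cocaine, and 6.78, 6.82 and 7.03 in controls given saline. In both probe sets and both genotypes, each cocaine array lay below each saline array.

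The Usp2 changes were -0.42 and -0.34 in mutants, and -0.28 and -0.29 in controls (-0.30 and -0.28 without the array high in Ttr). Over both genotypes they were -0.35 and -0.32. The difference in response was -0.13 for the first probe set (95% interval -0.49 to 0.22) and -0.05 for the second (-0.35 to 0.26). Genotype differences of 0.21 (95% interval 0.03 to 0.38, adjusted p = 0.141) and 0.10 (-0.05 to 0.26, adjusted p = 0.42) did not pass the test.

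Cabp1, the calmodulin relative, was low in a single group. Probe set 1421255_a_at read 3.74, 3.77 and 3.75 in mutants given cocaine, 4.33, 4.23 and 4.39 in mutants given saline, 4.22, 4.39 and 4.30 in controls given cocaine, and 4.50, 4.09 and 3.98 in controls given saline. The mutants given cocaine lay below all other arrays and within 0.03 of each other, under the log2 signal of 4 that the filter for testing used. The chosen change in mutants was -0.56. The change in mutants used the control arrays only through the spread, which the fit estimated over all groups. Cabp1 was also not called over both genotypes, which favours a small change in controls. The test in controls is therefore not free of the choice and cannot show that a response was absent. In controls the cocaine difference was 0.12, which did not pass the test (95% interval -0.13 to 0.36, adjusted p = 0.961, the same 0.12 without the array high in Ttr). Of all tested probe sets, 0.45% were called there in either direction and 0% as lower. The genotype difference over both treatments was -0.21 (95% interval -0.39 to -0.04, adjusted p = 0.125).

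Myo7a, the actin motor, had the same shape. Probe set 1421385_a_at read 3.17, 3.53 and 3.36 in mutants given cocaine, 3.70, 4.07 and 4.30 in mutants given saline, 3.87, 3.78 and 4.13 in controls given cocaine, and 3.73, 3.73 and 3.93 in controls given saline. Again the mutants given cocaine were below every other array. The probe set passed the filter with exactly 3 arrays above 4, and the mutants given cocaine lay under the array medians of 3.75 to 3.78. The chosen change was -0.67 in mutants, which may be compressed at such dim signals, while in controls the change of 0.13 did not pass the test (95% interval -0.19 to 0.45, adjusted p = 0.965; 0.03 without the array high in Ttr). The genotype difference of -0.17 did not pass it either (95% interval -0.40 to 0.05, adjusted p = 0.359).

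Rpl27a differed from these 2 genes in which group stood apart. Probe set 1437729_at read 4.58, 4.98 and 5.05 in mutants given cocaine, 5.39, 5.54 and 5.68 in mutants given saline, 5.01, 4.84 and 4.64 in controls given cocaine, and 4.71, 4.92 and 5.18 in controls given saline. The mutants given saline were above all other arrays, and the remaining 3 groups overlapped. The chosen change in mutants was -0.66, or 1.58-fold lower, and after saline the mutants were 0.60 above the controls, both as descriptions. In controls the cocaine difference was -0.11 (95% interval -0.43 to 0.22, adjusted p = 0.979; -0.01 without the array high in Ttr).

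The Rpl27a genotype difference over both treatments was 0.32 (95% interval 0.09 to 0.55, adjusted p = 0.0761). It passed the threshold without replicate 1 of the mutants given cocaine (adjusted p = 0.033) and without replicate 3 of the controls given saline (adjusted p = 0.0438), and ranged up to 0.167 over the arrays left out. Another probe set, 1426661_at, chosen after its values were seen, is annotated to Rpl27a and to 4 predicted genes at once and is no member. It read 11.09 to 11.29 over the 12 arrays, against 4.58 to 5.68 for 1437729_at. Its cocaine change in mutants was -0.10 (95% interval -0.25 to 0.05), where its groups did not overlap either. That interval includes 0, so 1426661_at does not show a fall of its own. The part of the 4 predicted genes in its signal cannot be told apart. Whether 1437729_at follows the main Rpl27a transcript was not tested.

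None of Cabp1, Myo7a and Rpl27a was called for cocaine over both genotypes, which favours small changes in controls. Their control tests therefore cannot show that a response was absent there. For these 3 genes the difference in response between genotypes, -0.68, -0.80 and -0.56, contains the change that chose them and is a description. An astrocyte marker moved with the same contrast: Gfap, the astrocyte filament protein, was lower with cocaine in mutants (-1.02, SE 0.217, adjusted p = 0.0303), at 3.58, 4.26 and 4.26 in mutants given cocaine and 4.87, 4.71 and 5.58 in mutants given saline. In controls Gfap averaged 4.06 after cocaine and 4.26 after saline. The mutants given saline thus stood above all other arrays, as for Rpl27a and unlike Cabp1 and Myo7a. Its second probe set read -0.93 (adjusted p = 0.0189). The call of the first was lost without replicate 1 of the mutants given cocaine (-0.80, adjusted p = 0.139), without replicate 1 of the mutants given saline (-1.11, adjusted p = 0.0517) and without replicate 3 of the mutants given saline (-0.76, adjusted p = 0.087). It was also lost without the filter on dim probe sets (adjusted p = 0.149) and with only the arrays compared (adjusted p = 0.131). Gfap was the 1 of 9 tested astrocyte markers called. With cocaine in mutants, 7 of the 9 were higher and 2 lower, with a median change of 0.02. The summed linear signal of the 9 ranged from 3310 to 3610 in mutants given cocaine and from 3180 to 3810 in mutants given saline. That sum is weighted to the brightest marker, Aldoc, which averaged 11.15 and 11.13 in these groups (log2 signal). It says little about dim markers such as Gfap. The part of astrocytes in the changes of these 3 genes was not tested.

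Across the 10 tested probe sets, cocaine and saline arrays did not overlap for 9 in mutants, all lower with cocaine, against 7.65% of all tested probe sets, and for 4 in controls, against 4.51%. Since the choice used these contrasts, the counts carry no weight as evidence. For genotype over both treatments, which did not choose them, 2 of the 10 probe sets were called, against 9.47% of all tested probe sets. Both belong to Ddit4l, so 1 of the 7 genes was called. The share counts probe sets and not genes, and a count of 1 gene is too small to be set apart from it.

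**Figure D2:**
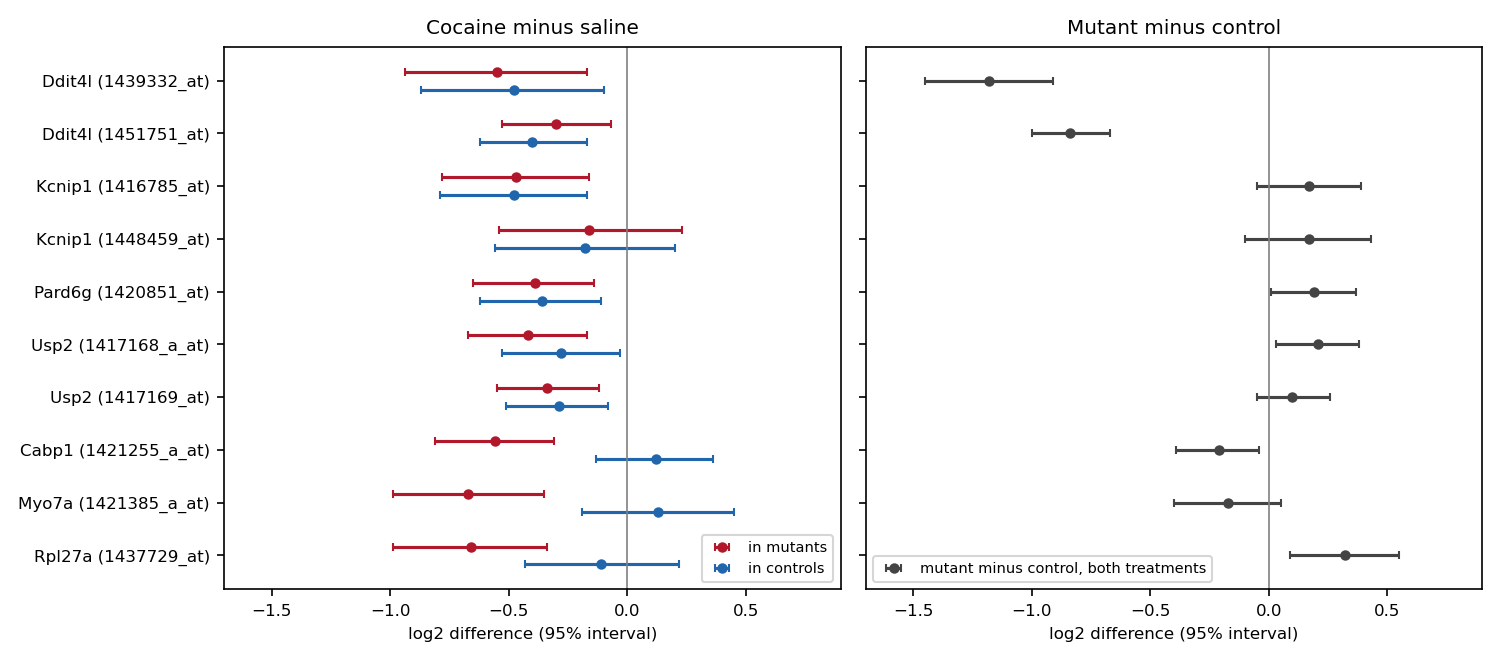
Log2 differences with 95% intervals (horizontal axis) for the 10 tested probe sets: on the left cocaine minus saline, in mutants and in controls, and on the right mutant minus control over both treatments. Ddit4l lies at -1.18 and -0.84 on the right, and on the left Cabp1 and Myo7a lie below 0 in mutants and at 0.12 and 0.13 in controls.

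The partners of these genes were read from lists of pathway genes, each gene by its brightest tested probe set. Among 10 other tested regulators of mTORC1, 1 rose and 0 fell with cocaine over both genotypes, with a median change of -0.01 against -0.007 over all tested probe sets, of which 2.11% rose. The one that rose was Rheb, the small GTPase that activates mTORC1, at 10.15 ± 0.146 in mutants given cocaine and 9.76 ± 0.0932 in mutants given saline, and 10.03 ± 0.0655 in controls given cocaine and 9.75 ± 0.125 in controls given saline (SD, n = 3; change 0.33, SE 0.0675, adjusted p = 0.0184). The Rheb call was at an adjusted p of 0.05 to 0.057 without any 1 of 6 arrays: replicates 1 and 3 of the mutants given cocaine, replicate 2 of the mutants given saline, replicate 2 of the controls given cocaine, and replicates 2 and 3 of the controls given saline. In genotype, 1 of the 10 was lower in mutants, the stress-induced mTORC1 inhibitor Sesn1 (-0.32, adjusted p = 0.0305), whose other probe sets read -0.03 and -0.14. Sesn1 was not called without replicates 1 or 2 of the mutants given cocaine, any replicate of the controls given cocaine, or replicates 2 or 3 of the controls given saline (adjusted p 0.0523 to 0.0697), nor without the filter on dim probe sets (0.0812) or with the replicate number as a block (0.0556).

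Of 5 other tested genes of the Kv4 channel complex, 0 were called for cocaine over both genotypes in limma (0 also at an unadjusted p under 0.05), and their changes ran from -0.12 to 0.02. Kcnd2, the Kv4.2 pore subunit that KChIP1 binds, was lower in mutants (-0.25, SE 0.0611, adjusted p = 0.0212; adjusted p = 0.0548 without replicate 3 of the controls given cocaine), and its other probe sets read -0.31 and -0.32. Of 9 other tested polarity genes, 1 rose with cocaine over both genotypes and 0 fell. It was Pard6a, the PAR6 alpha paralogue of Pard6g, at 5.98 ± 0.199 in mutants given cocaine and 5.51 ± 0.0746 in mutants given saline, and 5.71 ± 0.0388 in controls given cocaine and 5.49 ± 0.0722 in controls given saline (SD, n = 3; change 0.35, SE 0.0684, adjusted p = 0.0148).

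Of 28 other tested ubiquitin-specific proteases, 2 rose with cocaine over both genotypes and 0 fell, with a median of -0.01. Usp36, a nucleolar deubiquitinase, averaged 5.94 ± 0.218 in mutants given cocaine and 4.61 ± 0.31 in mutants given saline, and 5.02 ± 0.111 in controls given cocaine and 4.35 ± 0.0574 in controls given saline (SD, n = 3; change 1.01 over both, adjusted p = 7.18e-05, and 1.34 in mutants, adjusted p = 1.87e-04), and its other probe set read 0.49 over both and 0.92 in mutants. Usp38 averaged 5.03 ± 0.36 in mutants given cocaine and 3.85 ± 0.062 in mutants given saline, and 4.12 ± 0.0248 in controls given cocaine and 4.01 ± 0.0858 in controls given saline (change 0.65 over both, adjusted p = 0.00188). The changes of the list ran from -0.25 to 1.01. For genotype 3 of the 28 were higher and 2 lower in mutants, among them Usp5, which disassembles free ubiquitin chains (-0.35, adjusted p = 0.00674).

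Of 8 other tested calcium sensors and CaBP1 partners, 0 were called for cocaine or genotype in limma (at an unadjusted p under 0.05, 0 for cocaine and 1 for genotype), and their cocaine changes in mutants ran from -0.20 to 0.15. Of 7 other tested unconventional myosins and Usher proteins, 0 were called for cocaine (0 at an unadjusted p under 0.05), and in mutants they ran from -0.24 to 0.05. Myo5a, the organelle motor myosin Va, was lower in mutants, at 8.21 ± 0.0574 after cocaine and 8.22 ± 0.109 after saline, against 8.82 ± 0.0697 and 8.79 ± 0.186 in controls (SD, n = 3; difference -0.59, SE 0.0693, adjusted p = 1.44e-04), and its second probe set read -0.60. Of 21 other tested large ribosomal subunit genes, 0 were called for cocaine or genotype by their brightest probe set, and 0 at an unadjusted p under 0.05; in mutants their cocaine changes ran from -0.14 to 0.23. A dimmer probe set of Rpl27, 1448217_a_at, was among the called falls over both genotypes (-0.24, adjusted p = 0.0349). Of the 88 list genes, 0 were called for cocaine in controls in limma, and 8 were at an unadjusted p under 0.05.

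**Figure D3:**
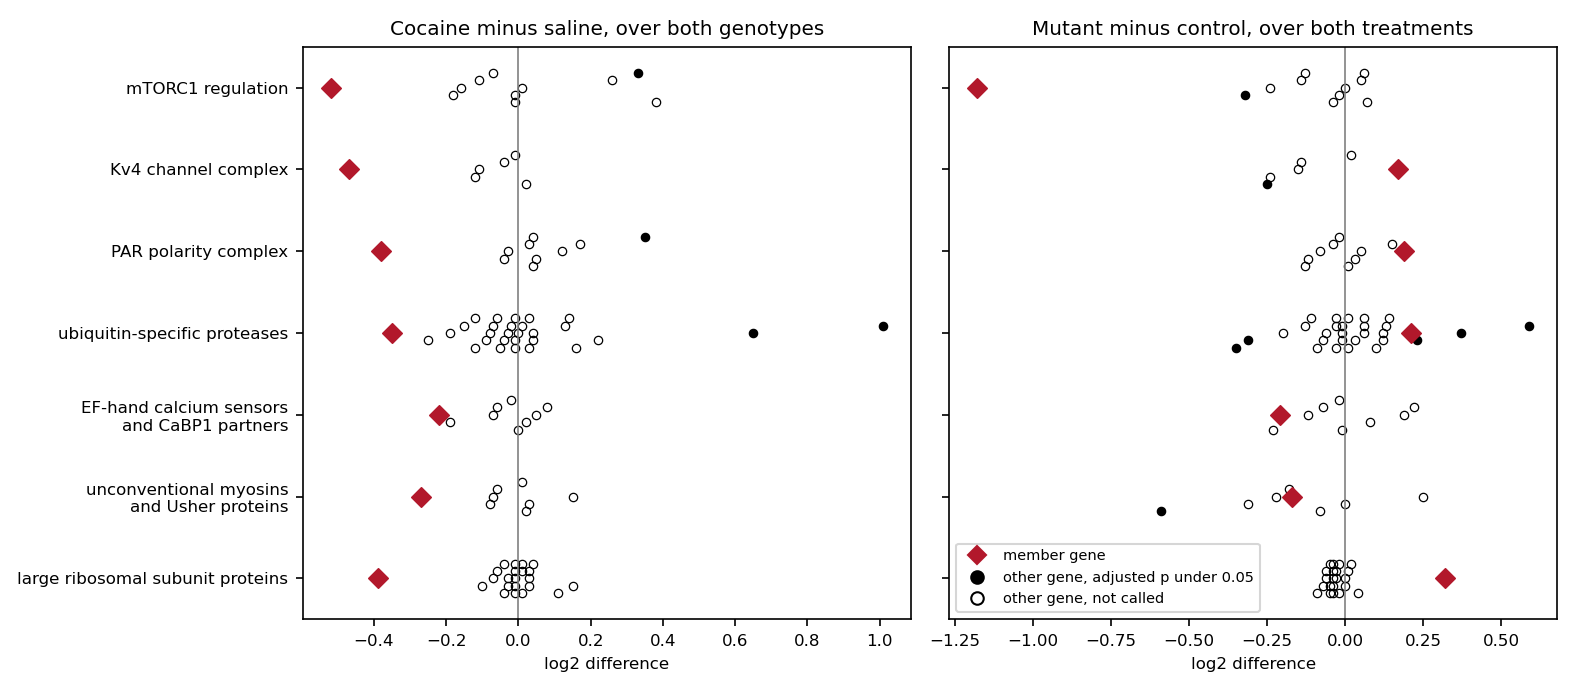
Log2 differences (horizontal axis) of the tested genes of each pathway list, 1 point a gene by its brightest tested probe set; diamonds are the 7 chosen genes and filled points are other genes with an adjusted p under 0.05. On the left (cocaine minus saline over both genotypes) 4 other genes are called, all higher with cocaine; on the right (mutant minus control over both treatments) Ddit4l lies at -1.18 and Myo5a at -0.59.

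The 17 other probe sets called lower with cocaine over both genotypes were set beside Ddit4l for genotype, a contrast that did not choose them. Their genotype differences ran from -0.37 to 0.26. Of the 17, 2 were called lower in mutants, Pttg1ip (-0.37, adjusted p = 0.00149) and Fcho1 (-0.26, adjusted p = 0.0346), and 1 higher, Taf4 (0.26, adjusted p = 0.0152). Ddit4l, at -1.18 and -0.84, lies outside their range.

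**Figure D4:**
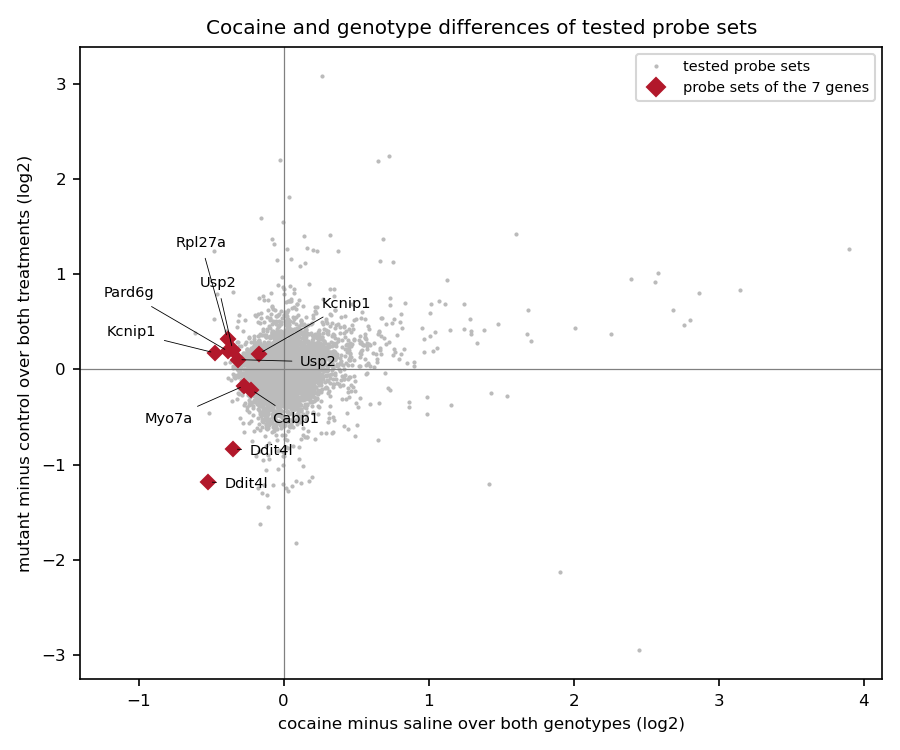
Cocaine minus saline over both genotypes (horizontal axis) against mutant minus control over both treatments (vertical axis), both log2, for the 11102 tested probe sets in grey and those of the 7 genes as diamonds. The Ddit4l probe sets are the only diamonds below -0.5 on the vertical axis; the choice of genes set the horizontal position.

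The genes whose pattern over the 12 arrays was most like each member are given by Pearson's r, as a description over arrays that fall into the same 4 groups. For Ddit4l they were Ehd1 (r = 0.951), Cdc42ep3 (0.937) and Myh7 (0.936), and after each group's mean was taken out r was 0.732, 0.517 and 0.303. Cdc42ep3 averaged 5.85 in mutants given cocaine, 5.95 in mutants given saline, 6.67 in controls given cocaine and 6.95 in controls given saline, which is the genotype step seen in Ddit4l. For Rpl27a they were Ywhaz (0.936), Map3k12 (0.899) and Sema6b (0.863), with 0.923, 0.846 and 0.612 within groups. For Myo7a they were Rps7 (0.918), Tefm (0.890) and Lrrc61 (0.882), and for Cabp1 Gdi2 (0.885), Ptpn12 (0.883) and Tspan33 (0.866).

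Kcnip1 was most like Luc7l3 (0.882), Brd7 (0.877) and AI597479 (0.867), Pard6g most like Cnot2 (0.896), Kif2a (0.884) and Prkce (0.867), and Usp2 most like Rpl35 (0.869), Cit (0.861) and Rps20 (0.856). The 2 Ddit4l probe sets had r = 0.950 with each other and 0.384 within groups. The 2 Usp2 probe sets had 0.897 and 0.676, and the 2 tested Kcnip1 probe sets 0.714 and 0.710.

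RefSeq promoter windows of GRCm38.p6, 250 bases before to 50 after a start, were at hand for 6 of the 7 genes, 10 windows in all (all but Pard6g). They were searched on both strands for the CArG box (CC and GG around 6 bases of A or T), the E-box of clock factors (CACGTG), the AP-1 site (TGANTCA) and the full cyclic AMP response element (TGACGTCA), none of which contains another. These were found in 0, 0, 0 and 1 of the 10 windows, and in 1.63%, 7.15%, 7.81% and 1.79% of all 32851 windows. The only Usp2 window lay around a start well inside the gene, and the bases at the outer start of Usp2 were not searched. The count of 0 for the E-box therefore cannot show that the Usp2 promoter lacks one. The match was in Rpl27a, on the plus strand of chromosome 7, in capitals in the 80 bases shown because they hold the only match (chr7:109519075-109519154, sequence from RefSeq).
Rpl27a promoter: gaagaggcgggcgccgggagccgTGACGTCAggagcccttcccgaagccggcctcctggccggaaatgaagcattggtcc
It begins at position -97. A match describes the letters of a window and not binding.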

How the data were processed

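Biotin-labelled RNA from the striatum was hybridized to 12 Affymetrix mouse arrays. The values used are the log2 signals that the authors deposited, 1 per probe set and array; R 2.4.1 and GCRMA were used, per the submitters' processing notes, while the log base was read from the values (1.26 to 13.14, array medians 3.75 to 3.78) and the settings of GCRMA are unknown. GCRMA corrects background and normalizes arrays together, which compresses dim signals, so low folds may be understated. Probe sets were named from the platform annotation (20393 with 1 symbol, 691 with several, 1606 with none). The 64 control probe sets were left out, and a probe set was tested when its log2 signal exceeded 4 in at least 3 arrays (11102).

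A model with 1 mean per group was fitted to all tested probe sets with limma 3.58.1 in R 4.3.3 (lmFit and eBayes, residual df 8, prior df 4.71), and p-values were Benjamini-Hochberg adjusted over all of them for each contrast, two-sided. The method was tested on simulated data. The number of arrays limits the precision. The p-values measure the spread between the arrays that the titles call biological replicates. Intervals are 95% intervals of that fit, unadjusted. The chosen genes, lists and named genes were selected with earlier results of these data known: named were all 7 genes, Srf, up to 3 called genes and the brightest other gene of each list, the 3 genes most like each member, and falls near the threshold; others were chosen after their values were seen. Python 3.11.15 and pandas 2.3.3 made the tables.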

Additional observations from a re-analysis of the deposited data

How the results depend on the processing

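Over all alternatives run, no called difference turned direction; uncalled ones near 0 did, such as the difference in response of the first Ddit4l probe set (-0.20 to 0.08 without 1 array). Ddit4l was called for genotype in each: leaving out 1 array gave -1.25 to -1.11 and -0.88 to -0.80 for its 2 probe sets. Without the filter, with a stricter one (log2 above 5), quantile normalization, array weights, an intensity trend or the replicate block, it gave -1.18 to -1.12 and -0.84 to -0.81. The stricter filter removed Kcnip1, Cabp1 and Myo7a, which then had no value. A fit on only the arrays compared could not be made for averaged contrasts.

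Counts moved more. With array weights, the cocaine contrast in controls had 88 calls (50 otherwise) and genotype after cocaine 708 (465). The lowest weight was 0.421, for replicate 1 of the controls given saline, while the array high in Ttr had 1.299. Without that replicate 1, 240 probe sets were called for cocaine in mutants (213) and 1088 for genotype over both treatments (1051). With only the arrays compared, 152 were called for genotype after saline (331). Without the filter, 5 were called for the difference in response (8). List genes called for cocaine in controls were 1 with array weights and 1 with only the arrays compared, against 0. The causes were not tested.

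Leaving out 1 array gave 131 to 240 probe sets called for cocaine in mutants, 219 to 350 for genotype after saline and 265 to 537 after cocaine. Members called for genotype were 1 to 2 (the second was Rpl27a), list genes for cocaine in controls 0 to 1, and list genes for genotype 5 to 11.

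Replicate numbers did not pair the arrays: deviations of same-numbered arrays from their group means correlated at -0.145 to 0.116 over 18 pairs (median -0.0822). With the number as a block, 216 probe sets were called for cocaine over both genotypes (257 without it) and 907 for genotype (1051); Ddit4l stayed the 1 member called, and Sesn1 had an adjusted p of 0.0556.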
